A study of Arabidopsis thaliana with 40 samples.

Results

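The genes described here encode proteins of the cytosolic ribosome of Arabidopsis thaliana. They are 44 loci given by a fixed list, and each was represented by the region of the deposited differential binding tables that overlaps the gene by at least 1 base. A region was found for 41 of the 44 loci, which is 41 of the 13362 regions in the tables. RPSAb, RPS15A and AT5G39850 had none. The mark measured was H3K9/14ac, the acetylated form of lysines 9 and 14 of histone H3, and it was read by ChIP-seq, in which chromatin carrying the mark is pulled down and sequenced.

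The cytosolic ribosome translates nuclear messages, and its small and large subunits are built from ribosomal RNA and from proteins that plants encode in small gene families rather than in single genes. The small subunit decodes the message and the large subunit joins the amino acids. H3K9/14ac is laid down by histone acetyltransferases and removed by histone deacetylases, and it lies mainly around the start of transcribed genes. Ribosomal protein genes are among the most actively transcribed genes of growing plant tissue. By the annotated names, 13 of the 44 genes encode proteins of the large subunit and 10 proteins of the small subunit, and the gene table used here names no protein for the other 21.

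The seedlings were ecotype Col-0, 7 days old, shaken in liquid medium with sucrose under short days, and whole seedlings were used, so cell types cannot be told apart. The controls received water. GSNO, S-nitrosoglutathione, releases nitric oxide and was given at 250 µM. GSH, the glutathione it is made from and which lacks the nitroso group, was given at the same 250 µM. In another group 250 µM GSNO was joined by 500 µM cPTIO, which removes nitric oxide. TSA, trichostatin A, blocks histone deacetylases and was given at 5 µM. Seedlings were treated for 3 h or for 16 h, with 2 ChIP and 2 input samples per treatment and time, 40 samples in all. The tables compare each of the 4 treatments with water at 3 h, and all but TSA with water at 16 h. TSA at 16 h has peak lists alone here.

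The tables hold group means, from which the whole reads of 17 single ChIP libraries were recovered. Each group had 2 libraries, called a (the shallower) and b, except water at 16 h, where the means came from 1 library. The shallowest library held 1590342 reads over all regions (water, 16 h) and the deepest 4053207 (library b of GSNO at 3 h). Every region of the ribosomal protein genes held at least 19 reads in every library. The comparisons at 16 h against water all rest on that lone water library, so their controls are shared and its own spread was not measured.

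Peaks of H3K9/14ac lay on most of the ribosomal protein genes. In 18 of the 20 peak lists, between 27 and 43 of the 44 genes were overlapped by a peak. The median was 89.8% of these genes, against 43.7% of the 27444 protein-coding genes and 80.8% of 182 other cytosolic ribosomal protein genes. The remaining 2 lists were sparse. Replicate 2 of water at 16 h had 1200 peaks and touched 1 of the 44 genes, and replicate 2 of TSA at 16 h had 385 peaks and touched 0, with 1.97% and 1.16% of all genes touched. The lists also differed in their number of peaks, and no treatment is compared by these counts. At 3 h, for example, replicate 1 of GSNO had 13521 peaks and touched 40 genes, and replicate 2 had 7885 peaks and touched 31. A peak covered a median of 29.6% of the length of a touched ribosomal protein gene, against 22.1% for all touched genes.

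**Figure D1:**
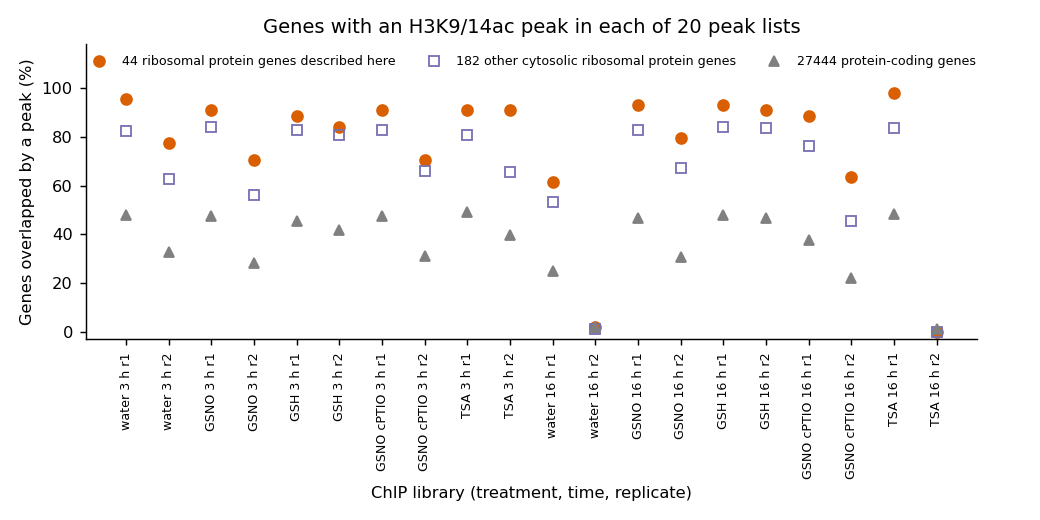
Share of genes overlapped by an H3K9/14ac peak in each of the 20 peak lists (r1 and r2 are the replicates): circles, the 44 ribosomal protein genes; squares, 182 other cytosolic ribosomal protein genes; triangles, 27444 protein-coding genes. The circles lie between 61.4% and 97.7% in 18 lists and at 2.27% and 0% in the sparse lists.

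A peak was present in all 18 dense lists at 19 of the 44 genes. The genes with the fewest peaks were AT5G39850 with 3 lists, RPL10B with 4, RPS15A and RPSAb with 5 each, and RPL3B with 9. AT5G39850, RPS15A and RPSAb are the 3 genes that also lack a region in the tables. RPSAb and its relative P40, which had a region, encode the same small subunit protein, SA. A region was found for 93.2% of the 44 loci, against 48.7% of protein-coding genes, 85.2% of the other cytosolic ribosomal protein loci and 97.0% of 33 loci for plastid ribosomal proteins.

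The level of acetylation at these genes was above the middle of the regions but not at the top. In water at 3 h the median ribosomal protein gene had 263 scaled reads per kb of region (mean of the 2 libraries), against 228 for all regions, and 30 of the 41 lay above the median of all regions. With all regions ranked into 10 equal groups by reads per kb, 0 of the 41 fell in the highest group and 3 in the lowest. The median width of their regions was 813 bases, against 720 for other regions. Library by library, the median over the 41 regions ran from 233 reads per kb (TSA, 3 h, library b) to 270 (GSNO, 16 h, library b). In 15 of the 17 libraries it lay above the median of all regions, and both exceptions were the TSA libraries, where it was 242 and 233 against 243 and 241. The 41 regions together took 0.33% to 0.38% of the reads of a library.

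The 3 highest regions by reads per kb in water at 3 h were those of AT3G09630, AT5G15200 and PGY1. AT3G09630 had 445 and 339 reads per kb in the 2 water libraries, AT5G15200 385 and 397, and PGY1, whose mutant shows ectopic leaf outgrowths in a sensitised background, 338 and 402. The 3 lowest were RPL3B, RPL16A and RPL10B. RPL3B encodes a large subunit protein of the L3 family, which reaches into the peptidyl transferase centre, and had 49.8 and 166 reads per kb. RPL16A had 125 and 141, and RPL10B 127 and 143. RPL10B is low only per kb: its region spans 1617 bases, of which 728 lie in the gene, and by the log2 mean of the whole region in the authors' deposited table it is at 7.66, beside a median of 7.66 over the 41. The highest and the lowest 3 regions did not overlap in these 2 libraries. They were picked by their mean in the same libraries, so the separation follows largely from the choice and tests nothing. RPL3B was lowest only by library a, since in library b both RPL16A and RPL10B lay below it.

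**Figure D2:**
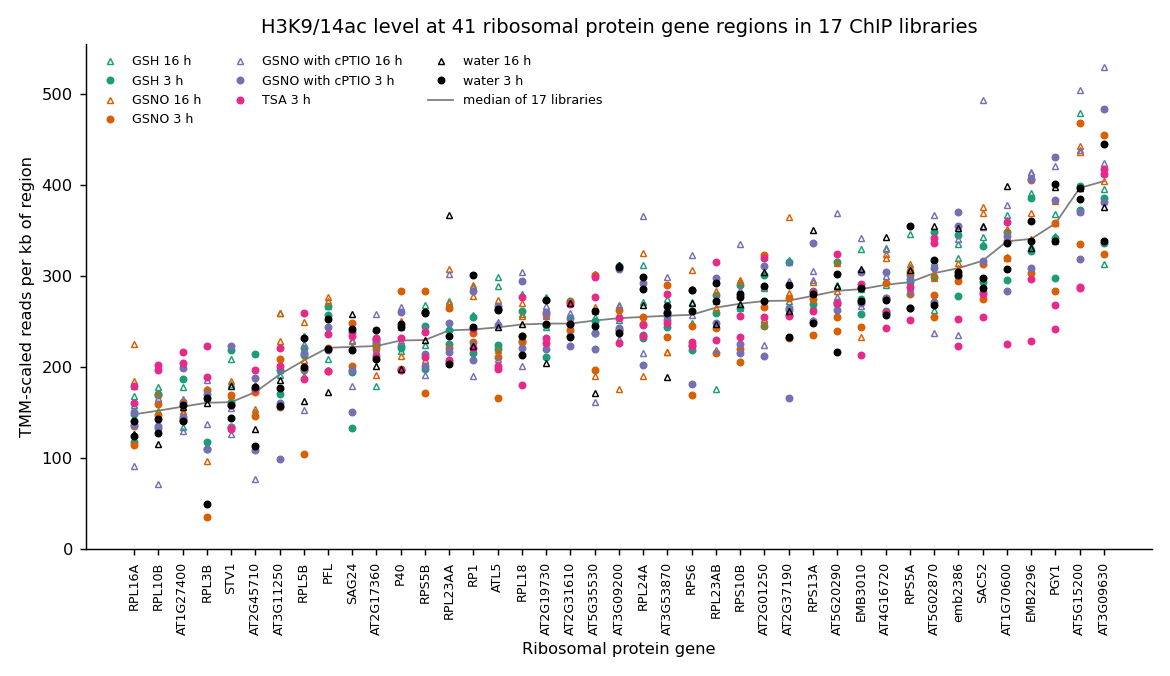
Scaled reads per kb at the 41 regions (x axis, ordered by their median) in 17 libraries; filled circles are 3 h libraries, open triangles 16 h libraries, colours the treatments, and the line the median. RPL3B has its 2 lowest points, 34.8 and 49.8, in GSNO and water library a of 3 h.

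In several protein families 1 gene carried a higher level than its relative, with reads that map to near-identical copies uncertain between them. Among the L10 genes, which encode a large subunit protein near the site where transfer RNA enters, SAC52 exceeded both RPL10B and SAG24 in 17 of 17 libraries, with median ratios of 2.14 and 1.51 in reads per kb. RPL10B lay under SAG24 in 16 of 17. The place of RPL10B rests on the width of its region, which reaches into the neighbouring gene. By reads of the whole region, SAC52 exceeded RPL10B in 9 of 17 libraries and RPL10B exceeded SAG24 in 15 of 17, so the order of RPL10B in this family is not settled. In the L24 family, RPL24A exceeded STV1, a gene required for normal carpel patterning, in 17 of 17 libraries (median ratio 1.51). In the L3 family, RP1 exceeded RPL3B in 17 of 17 (median ratio 1.67). RPS5A, the S5 gene needed for early embryo divisions, exceeded RPS5B in 16 of 17 (median ratio 1.29), and ATL5 exceeded RPL5B, both genes of the 5S RNA-binding protein L5, in 15 of 17 (median ratio 1.14).

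The other families showed no such order. RPL23AA exceeded RPL23AB in 6 of 17 libraries, and RPS6 exceeded EMB3010 in 5 of 17; RPS6 and EMB3010 both encode S6, the small subunit protein phosphorylated by S6 kinase downstream of TOR. Their median ratios were 0.93 in each pair. The libraries share the regions and their width, so these counts describe the regions and carry no p.

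**Figure D3:**
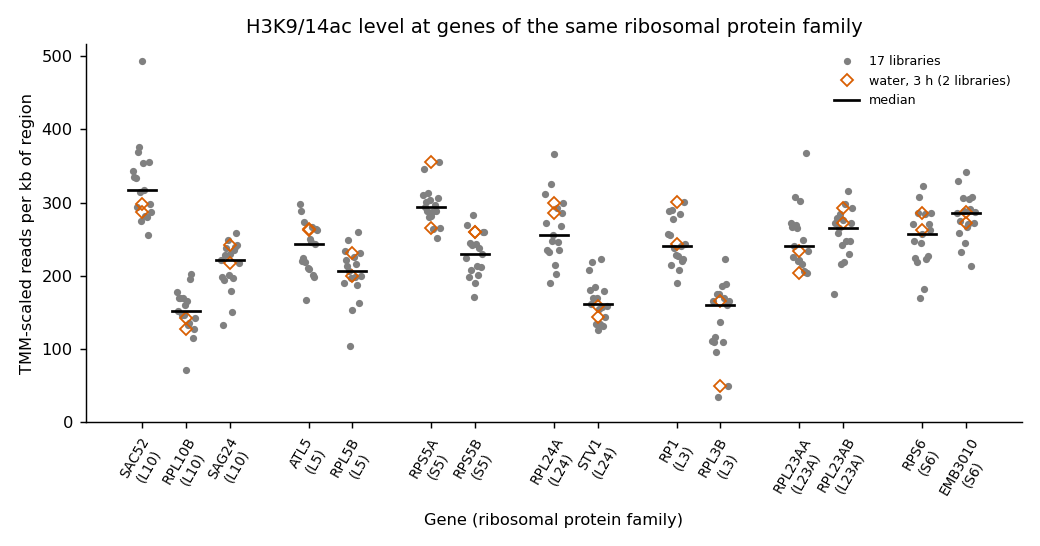
Scaled reads per kb at 15 genes of 7 ribosomal protein families; grey points are the 17 libraries, diamonds the 2 water libraries of 3 h and bars the median. SAC52, RPL24A and RP1 lie above their relatives RPL10B, STV1 and RPL3B in all 17 libraries; the region of RPL10B is 1617 bases wide and reaches into another gene.

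Over the 17 libraries the regions varied less than most. The standard deviation (SD) of the log2 level had a median of 0.21 over the 41 regions, 0.24 over other regions in the same of 10 groups by average level and 0.28 over all other regions. It was under the median of its own level group for 27 of 41. The SD between the libraries of 1 group was close in the ribosomal protein genes (0.20) and in other regions of the same level (0.20). The steadiest was AT2G31610 with an SD of 0.08, whose region of 1527 bases also overlaps AT2G31600. The most variable were RPL3B with 0.69, AT2G45710 with 0.38 and RPL10B with 0.34.

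With TSA for 3 h nearly all of these genes were without a call. Of all regions, 20.8% were called (10.7% higher and 10.1% lower, FDR under 0.05 in the authors' deposited table). There, 1 of the 41 ribosomal protein regions was called higher, RPL10B, and 0 were called lower. At an unadjusted p under 0.05 the authors' deposited table holds 5 of the 41 (12.2%), against 33.5% of all regions. Of other regions with the same level in water, 15.9% were called. The median log2 fold of the 41 was -0.07, with 16 above and 25 below 0, and their SD was 0.29 against 0.54 for all regions and 0.37 for regions of the same level. Folds lay within 0.5 of 0, on the log2 scale, for 38 of 41 regions (92.7%), against 69.2% of all regions. All these folds are relative, as they come from normalised reads, and the median with TSA over all regions was 0.00046. A rise or fall shared by all regions would therefore not show, here or in the other comparisons.

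RPL10B encodes the B copy of L10. Its region (chromosome 1, 9320761 to 9322377, in the coordinates of the tables) had 127 and 143 reads per kb in water and 196 and 202 with TSA, with no overlap between the groups. Here and below, regions without overlap were picked by their call, fold or difference. How often other regions separate with 2 libraries per group was not counted. The log2 fold in the authors' deposited table was 0.56, with an FDR of 0.042. This region also overlaps the neighbouring gene AT1G26900, and its midpoint lies outside RPL10B. It was not called by limma, nor at an FDR under 0.01.

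PGY1 (chromosome 2, 11763925 to 11764699) gave the lowest fold. It had 338 and 402 reads per kb in water and 242 and 268 with TSA, so the TSA libraries lay below both water libraries. The log2 fold in the authors' deposited table was -0.54 with an FDR of 0.056. The limma test of the recovered reads gave a log2 difference of -0.53 (SE 0.17, adjusted p = 0.037), and called 0 of the 41 regions higher and PGY1 alone lower, against 15.3% of all regions (5.32% higher and 10% lower). Without any 1 of the 4 libraries its adjusted p rose above 0.05. The lowest 3 folds in the authors' deposited table also held AT5G15200 at -0.45 (FDR 0.11) and EMB2296 at -0.42 (FDR 0.18), neither of them called. AT5G15200 had 385 and 397 reads per kb in water and 287 and 288 with TSA, with no overlap.

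The highest fold in the authors' deposited table was that of RPL3B, 0.93 with an FDR of 0.083. It had 49.8 and 166 reads per kb in water and 223 and 189 with TSA. The limma log2 difference of RPL3B was 1.16 over all libraries, 0.30 (SE 0.61) without water library a, and 2.02 (SE 0.63, adjusted p = 0.039) without water library b. AT1G27400, whose region also overlaps 2 other annotated loci, followed RPL10B at 0.49 in the authors' deposited table (FDR 0.082).

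Over the regions as a whole the fold with TSA was lower where the level in water was higher. With 10 level groups, the median log2 fold was 0.71 in the lowest and -0.47 in the highest. The 4 ribosomal protein regions of the highest group, AT3G09630, AT2G31610, AT2G17360 and AT3G53870, had a median of 0.03 and 0 were called, against 39.0% of the other regions there. Regions of 3 of these 4 also overlap another gene. Over the 7 ribosomal protein regions that overlap another gene the fold exceeded that of the same level by a median of 0.46, and over the 34 others by 0.04. Over all 41 the median excess was 0.04, with 25 above and 16 below, and it became -0.04 when the level was averaged over water and TSA and -0.05 when the level was taken per kb. The level in water enters both the fold and the grouping, and the part this played was not tested.

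**Figure D4:**
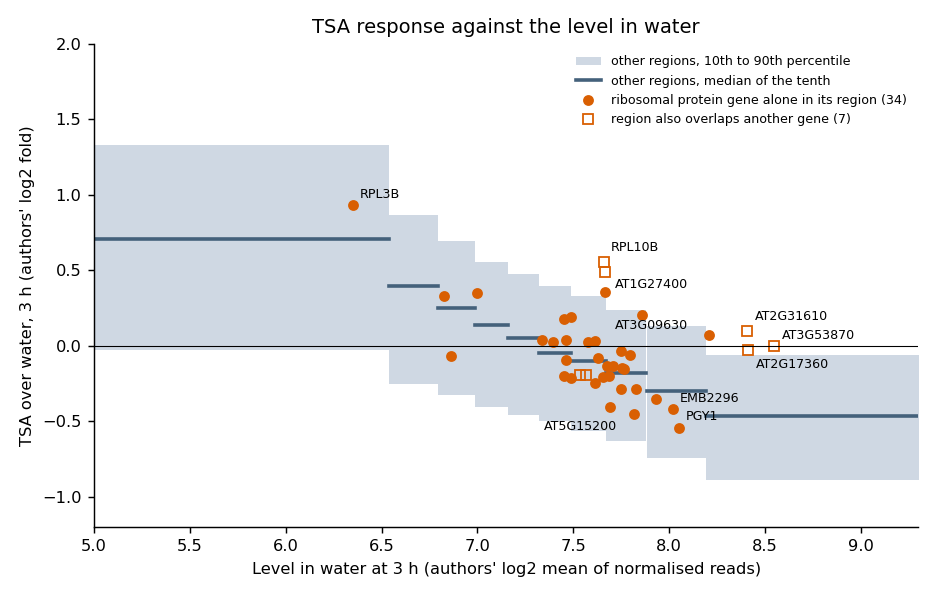
Log2 fold of TSA over water at 3 h against the log2 mean in water, both from the authors' deposited table. Bands span the 10th to the 90th percentile and lines give the median of other regions in each of 10 level groups. The line falls from 0.71 to -0.47, and the 41 ribosomal protein regions (circles, and squares where another gene overlaps) run from -0.54 to 0.93.

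By subunit as named, the 8 small subunit regions had a median TSA fold of -0.20 with 1 of 8 above 0. The 13 large subunit regions had a median of -0.06 with 6 of 13 above 0. The 20 regions with no protein named had a median of -0.02 with 9 of 20 above 0. These 20 were not assigned to a subunit, so the split does not cover all regions of either. None of the small subunit regions was called. These are counts from the authors' deposited table, and the difference between the subunits was not tested.

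With GSNO, GSH or GSNO with cPTIO for 3 h no ribosomal protein region was called. The authors' deposited tables call 0.0449% of all regions for GSNO, 0.105% for GSH alone and 0.0374% when cPTIO was added to GSNO, so few calls could fall on 41 regions. At an unadjusted p under 0.05 these tables hold 0 of the 41 in each comparison, against 2.22%, 4.06% and 3.34% of all regions. By limma 0 of the 41 were called in each (0.00748% of all regions in each), with 3, 1 and 0 at an unadjusted p under 0.05, against 3.85%, 2.83% and 4.54% of all regions. Median log2 folds of the 41 were -0.03, -0.00 and -0.03 in that order.

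With GSNO at 3 h the lowest folds in the authors' deposited table were those of RPL5B (-0.52), ATL5 (-0.48) and RPS6 (-0.40), each with an FDR of 1. RPL5B and ATL5 are the pair that encodes L5. ATL5 had 264 and 263 reads per kb in water and 166 and 211 with GSNO, without overlap. With GSH at 3 h ATL5 had 220 and 224 reads per kb, also below both water libraries. Its log2 fold with GSH was -0.25 in the authors' deposited table. ATL5 was picked by its fold with GSNO, and how often other regions separate in this way was not counted. RPL5B had 232 and 200 in water and 104 and 197 with GSNO, so its fold rests on library a. With GSNO and cPTIO, ATL5 had 246 and 267 reads per kb, both above the GSNO libraries, and the limma log2 difference of GSNO against GSNO with cPTIO was -0.45 (SE 0.18, adjusted p = 1.00). With GSNO, 0 of 8 regions named as small subunit had a fold above 0 in the authors' deposited table. The fold was above 0 in 5 of 13 named as large subunit and 10 of 20 with no protein named. The last may belong to either subunit, and these differences were not tested.

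The highest folds with GSNO at 3 h in the authors' deposited table were 0.18 (RPL10B), 0.15 (RPL23AA) and 0.13 (AT2G45710). With GSH the lowest were SAG24 (-0.49), RPL24A (-0.32) and RPS6 (-0.31), and the highest AT2G45710 (0.42), RPL10B (0.33) and STV1 (0.32). With GSNO and cPTIO the authors' deposited table has SAG24 (-0.41), AT3G11250 (-0.36) and RPS10B (-0.34) lowest and RPL3B (0.37), emb2386 (0.26) and STV1 (0.24) highest. These comparisons share their water libraries, so a gene that comes back in them does so in part through the same reads.

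At 16 h the tables again call no ribosomal protein region, against 0.935% of all regions for GSNO, 2.16% for GSH and 0.561% when cPTIO was added. At an unadjusted p under 0.05 the authors' deposited tables hold 2, 1 and 0 of the 41, against 6.77%, 11.5% and 5.87% of all regions. Limma called 0 of the 41 (0.329%, 0.374% and 0.666% of all regions), with 3, 2 and 2 at an unadjusted p under 0.05, against 7.74%, 7.48% and 11.6% of all regions. Median log2 folds were 0.07 for GSNO, 0.05 for GSH and 0.00 when cPTIO was added. Against regions of the same level in water the folds were higher by a median of 0.17 with GSNO (29 above, 12 below), by 0.12 with GSH (31 above, 10 below) and by 0.04 with GSNO and cPTIO (22 above, 19 below). With the level taken per kb the value for GSNO was 0.078, and without library b of GSH that for GSH was 0.070. All 3 values share the lone water library, whose part in them was not tested. The 156 regions of other cytosolic ribosomal protein genes, with the same water library, also lay higher than regions of their level. Their median excess was 0.09 with GSNO (103 above, 53 below), 0.08 with GSH (103 above, 53 below) and 0.05 with GSNO and cPTIO (90 above, 66 below).

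PFL, which encodes the small subunit protein S18 and whose loss narrows the first leaves, had 173 reads per kb in the water library of 16 h and 273 and 277 with GSNO. The authors' deposited table gives a log2 fold of 0.67 and an FDR of 0.68. In water at 3 h PFL had 220 and 252 reads per kb, above the 16 h water library. RPL16A had 127 in water and 225 and 184 with GSNO, for which the authors' deposited table gives 0.69 and an FDR of 0.73. RPL5B followed at 0.49. The lowest 3 were AT3G09200 (-0.53), RPS13A (-0.36) and RPL23AA (-0.35).

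With GSH at 16 h the highest fold in the authors' deposited table was that of AT5G35530, 0.70 with an FDR of 0.25. It had 172 reads per kb in water at 16 h, 303 and 255 with GSH, and 245 and 262 in water at 3 h. RPL10B (0.52) and AT3G53870 (0.47) followed, and RPL23AA (-0.44), RPS13A (-0.36) and AT5G02870 (-0.29) were lowest. With GSNO and cPTIO the authors' deposited table has AT3G53870 highest at 0.58, then AT2G19730 (0.36) and AT3G09630 (0.35), and AT2G45710 (-0.49), RPL23AA (-0.48) and STV1 (-0.35) lowest.

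**Figure D5:**
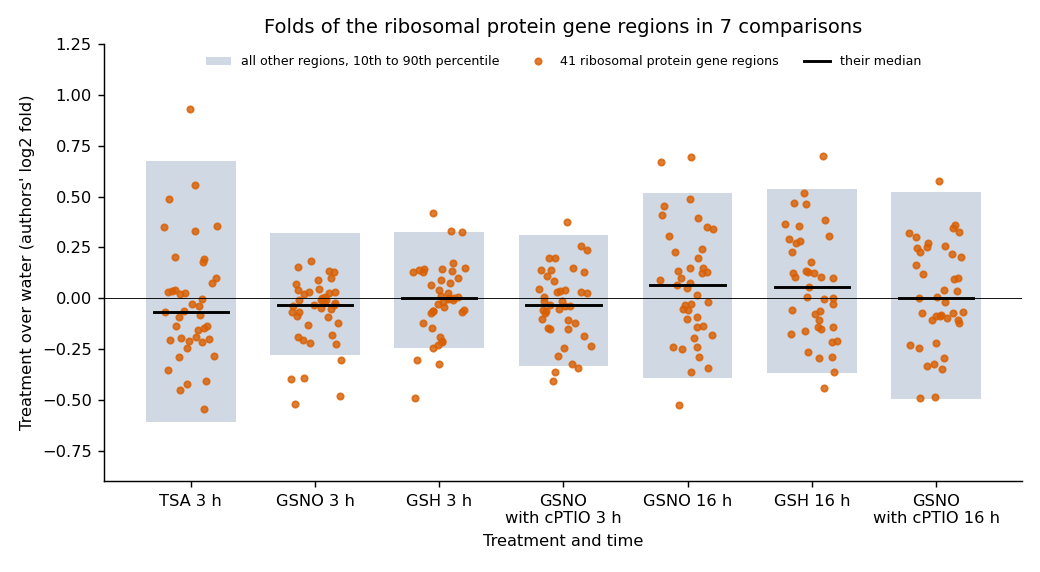
Log2 folds of the 41 ribosomal protein regions (points) in the 7 comparisons with water, from the authors' deposited tables; black bars are their medians and boxes span the 10th to the 90th percentile of all other regions. Medians lie between -0.07 and 0.07, and no fold exceeds 0.93 in size.

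Across the 7 comparisons every fold of every ribosomal protein region stayed within 1 on the log2 scale, which was so for 89.3% of all regions and 94.96% of regions of the same level. All 7 folds stayed within 0.5 for 32 of the 41 (78.0%), against 44.9% of all regions and 57.6% of those of the same level. The limma intervals say how large a missed difference could be. With TSA the 95% interval lay within a log2 difference of 1 for 39 of 41 regions, against 64.7% of all regions, and its median half-width was 0.40. For GSNO at 16 h that held for 34 of 41 with a half-width of 0.48. RPL3B had the widest reach, up to a log2 difference of 2.31 with TSA.

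Treatments were also set against each other by limma. GSNO and GSH differ by the nitroso group, and GSNO and GSNO with cPTIO by the added cPTIO. No group received cPTIO alone, so removal of nitric oxide cannot be told apart from other effects of cPTIO. None of the 41 regions passed an adjusted p of 0.05 in any of these comparisons. GSNO against GSH called 0% of all regions at 3 h and at 16 h, and 3 and 0 of the 41 had an unadjusted p under 0.05, against 1.71% and 2.52% of all regions. GSNO against GSNO with cPTIO called 0% of all regions at 3 h, with 2 of the 41 at an unadjusted p under 0.05 (4.61% of all regions). At 16 h it called 0.0225%, with 6 of the 41 at an unadjusted p under 0.05 (9.71% of all regions). TSA against GSNO at 3 h called 11.7% of all regions, with 5 of the 41 at an unadjusted p under 0.05 (28.3% of all regions). The smallest adjusted p of the 41 there was 0.093 (AT5G15200). Between GSNO and GSH at 16 h the 95% interval lay within a log2 difference of 1 for 40 of 41 regions.

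The widest gap between GSNO and GSNO with cPTIO at 16 h was at AT2G45710. It had 153 and 180 reads per kb with GSNO and 76.8 and 110 with cPTIO added, without overlap, and 132 in water. The limma log2 difference was 0.85 (SE 0.24, adjusted p = 0.22). Without library b of GSNO with cPTIO at 16 h, the log2 differences of RPL10B, RPL16A and AT2G45710 were 1.13, 1.15 and 1.11. RPL10B had 71.6 reads per kb in library a of that group and 166 in library b. Without GSNO library b of 3 h, the log2 differences of TSA against GSNO were 2.50 (RPL3B), 1.05 (RPL5B), -0.72 (AT5G15200) and -0.66 (EMB2296). Each of these values rests on 1 library of the reduced group, and the regions were picked by their result in these fits.

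Between 3 h and 16 h of the same treatment no ribosomal protein region passed either. Limma called 0.883% of all regions for GSNO, 0.494% for GSH and 3.44% when cPTIO was added, and 6, 1 and 5 of the 41 had an unadjusted p under 0.05, against 10.9%, 6.74% and 16.2% of all regions. Median log2 differences, 16 h minus 3 h, were 0.10, 0.08 and 0.05, with 31, 27 and 25 of 41 above 0. RPS10B, a small subunit gene of the S10 family, was 0.47 higher with GSNO (SE 0.17, adjusted p = 0.24) and 0.49 higher with GSNO and cPTIO (SE 0.17, adjusted p = 0.12), neither past the threshold. Without GSNO library b of 3 h, the log2 difference of RPL5B with GSNO was 1.11. For GSNO with cPTIO, the differences without library b of 16 h were -0.90 (RPL10B) and 0.72 (SAC52). Without library b of 3 h that of AT2G37190 was 0.87. These regions were picked by their result in such fits, each with 1 library left in a group. The response to a treatment at 16 h minus that at 3 h passed at none of the 41 for GSNO, GSH or GSNO with cPTIO, where 0.12%, 0.12% and 0.18% of all regions were called and 2, 1 and 2 of the 41 had an unadjusted p under 0.05, against 6.002%, 4.83% and 7.45% of all regions.

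Other genes of translation are given for comparison, from the same authors' deposited tables. With TSA 20.8% of all regions were called. Of 156 regions of other cytosolic ribosomal protein genes, 3 were higher and 8 lower with TSA (7.05%), with a median log2 fold of -0.15. AT5G45775 was called higher there (fold 1.18, FDR 2.0e-05), and AT3G06700 (-0.80, FDR 0.0030) and AT3G53890 (-1.13, FDR 0.0041) were called lower. Of 32 plastid ribosomal protein regions 5 were higher and 0 lower (15.6%), among them EMB3113 (1.17) and EMB3126 (0.95). Of 9 regions of ribosome assembly factors 3 were higher (33.3%). They were FIB2 (1.73) and NAP57 (0.98), which act in ribosomal RNA modification, and NUC-L1 (1.29), a nucleolin of ribosomal RNA transcription. Of 31 translation factor regions 2 were higher and 2 lower (12.9%). Of 7 regions of the TOR kinase pathway 3 were higher (42.9%), although the median of the 7 was -0.17. They were RAPTOR1 (0.89), RAPTOR2 (1.316) and PK1 (0.89), an S6 kinase. Against regions of the same level in water, the median excess was -0.11 (60 above, 96 below) for the other cytosolic genes. It was 0.17 (21 above, 11 below) for plastid ribosomal proteins and 0.10 (20 above, 11 below) for translation factors. For assembly factors it was 0.34 (7 above, 2 below), and for the TOR kinase pathway 0.01 (4 above, 3 below). The difference between any of these lists and the 41 regions was not tested.

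In the 6 comparisons with GSNO, GSH or GSNO with cPTIO, calls in the other lists were found only among translation factors at 16 h. AT1G07930 was called in all 3 tables of that time. Its value was 1 in the lone water library of 16 h, the lowest found there, and 45 to 245 in the other 16 libraries. No library held a value under 1, so a 1 may be a floor rather than a counted read. For that reason no fold is given. FBR12, a translation factor 5A, was called with GSH (log2 fold 1.28, FDR 0.026 in the authors' deposited table). Before scaling for depth it held 32 reads in the lone water library of 16 h and 115 and 215 with GSH. In water at 3 h it held 56 and 158, so its call too rests on that lone library.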

How the data were processed

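The members and gene lists were chosen with earlier results of these data known. Per the submitters' processing notes, DiffBind and edgeR were used, on builds TAIR10 and TAIR9; aligner and caller: not given in the sources used here. The authors deposited log2 group means of normalised read counts, log2 folds, p-values and FDR per region, and 1 peak list per ChIP library (their score, 0 throughout, was not used). Genes came from a RefSeq table of TAIR10.1, used for names and overlaps; TAIR9 and TAIR10 share 1 genome sequence. Against water, calls use the FDR of the authors' deposited table (under 0.05). Named genes are those called, the 3 highest and 3 lowest folds per comparison, the 3 highest and lowest by reads per kb in water, and family pairs; others were chosen after their values were seen. Whole reads came out of the group means for 100% of regions (tolerance 1e-08), with 100% right on 3 simulated pairs of libraries. Reads were TMM-scaled over 17 libraries, given a pseudocount of 1, put on the log2 scale and fitted by limma 3.58.1 under R 4.3.3 (trend, two-sided, Benjamini-Hochberg over 13362 regions). On simulated reads limma found 51% to 84.5% of 2-fold and 99.5% to 100% of 4-fold changes. All simulated regions were given the same spread, and 200 random regions were changed. These shares need not hold for the most variable regions, or for TSA, where many regions changed. With 2-fold changes at 16 h against water, 18 of 126 calls were false for GSNO and 13 of 115 for GSH. With GSNO and cPTIO 17 of 124 were false. The other comparisons had 4 to 12 false calls among 162 to 181 calls each. The design assumed single libraries might not be recoverable; they were. P-values measure the spread between 2 libraries per group, and the lone water library of 16 h is assumed to vary like the rest.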

Additional observations from a re-analysis of the deposited data

How the results depend on the processing

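Of 309 alternatives over 45 results, 258 kept the value within the spread or the count within 1.5 times. The TSA call at RPL10B became 0 calls at an FDR under 0.01, with the midpoint inside the gene, without regions that overlap another gene, and by limma, which called 1 region lower (PGY1), or 0 with no trend. Leaving out 1 library gave 0 to 1 calls for TSA, 0 to 4 for TSA against GSNO, 0 to 3 for GSNO against GSNO with cPTIO at 16 h, 0 to 1 for GSNO between times, 0 to 2 for GSNO with cPTIO between times, and 0 in the other comparisons. Median log2 differences of the regions ran, without 1 library, from -0.091 to -0.040 (GSNO against GSH, 3 h), -0.067 to 0.038 (GSNO against GSNO with cPTIO, 3 h), -0.049 to 0.051 (TSA against GSNO), -0.041 to 0.034 (GSNO against GSH, 16 h), -0.013 to 0.044 (GSNO against GSNO with cPTIO, 16 h), 0.098 to 0.194 (GSNO between times), 0.076 to 0.102 (GSH between times) and 0.018 to 0.106 (GSNO with cPTIO between times). Within these ranges, GSNO against GSH gave -0.075 at 3 h without GSNO library a, and 0.0070 and 0.0047 at 16 h without GSH library a or b. The effect of adding cPTIO at 16 h (GSNO minus GSNO with cPTIO) was 0.0017 and -0.0099 without library a or b of the cPTIO group. Between times, GSNO gave 0.159 without library a of 16 h and GSH 0.100 without library a of 16 h. Scaling by totals gave 0.047 for TSA against GSNO, 0.0056 for GSNO against GSH at 16 h, 0.081 for GSNO between times and 0.071 for GSH between times, and equal medians gave -0.035 for TSA against GSNO. The median excess over regions of the same level was -0.044 (TSA), -0.035 (GSNO, 3 h) and 0.029 (GSH, 3 h) with the level averaged over both groups. Taken per kb it was -0.054 (TSA), 0.0049 (GSH, 3 h) and 0.078 (GSNO, 16 h). With 20 level groups it was 0.0057 for GSNO at 3 h, and without regions that overlap another gene 0.020 for GSH at 3 h. Without GSH library a it was 0.016 for GSH at 3 h. Without any 1 library it ran from -0.018 to 0.085 (TSA), -0.022 to 0.057 (GSNO, 3 h), -0.0030 to 0.111 (GSH, 3 h), -0.087 to 0.092 (GSNO with cPTIO, 3 h), 0.106 to 0.209 (GSNO, 16 h), 0.070 to 0.138 (GSH, 16 h) and -0.011 to 0.089 (GSNO with cPTIO, 16 h). Peaks that had to cover at least 50% of the gene touched a median of 4.55% of the 44 genes over 20 lists, against 88.6% for any overlap. The cause of these changes was not tested. No paired analysis was possible because the recovered libraries carry no replicate numbers. Promoter motifs, a filter on peak scores and leaving out the water library of 16 h were not run. The limma alternatives for the 7 comparisons with water, the 18 lists and the differences of responses were chosen after seeing the data. With 1 water library, a 2-fold change at 16 h against water was found in 51% to 54% of simulated cases.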
